A study of Sus scrofa with 36 samples.

Results

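The infarct zone of pigs that had a myocardial infarction at 14 days of age was compared, 1 week later, with the anterior left ventricular wall of sham-operated pigs of the same age. The comparison takes the 3 infarct zone (IZ) libraries and the 3 sham libraries of the Old Late condition, which are 6 of the 36 libraries of the series, chosen by their labels alone. Of 25880 genes in the count table, 14537 passed a filter on low counts and were tested. All pigs were Yorkshire-landrace animals. The infarct was made by permanently ligating branches of the left anterior descending and left circumflex coronary arteries, and the control pigs were sham-operated. Each library came from a different pig, operated on at 14 days and killed at 21 days, and all 6 libraries were prepared in library preparation batch 3. The same table holds the border zone (BZ) of these infarcted pigs, and the corresponding zones of pigs operated on at 2 days of age (Young) or examined 1 day after surgery (Early), which are used below only to show where the Old Late infarct zone differs from them. The pigs were young and growing, so the comparison describes a juvenile heart, and whole tissue was sequenced, so fewer cells of a type and less RNA per cell cannot be told apart.

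An infarct heals in overlapping steps. Dying cardiomyocytes, which are built of sarcomeres and packed with mitochondria that burn fatty acids, are cleared by neutrophils and then by macrophages. Fibroblasts spread into the damaged wall, take on smooth muscle contractile proteins as myofibroblasts, and secrete collagens that enzymes of the endoplasmic reticulum modify and lysyl oxidases cross-link outside the cell. New vessels, lymphocytes and remaining muscle contribute further RNA to the same piece of tissue.

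The 3 IZ libraries held 19318850 to 24046165 counts and the 3 sham libraries 19745403 to 23878767 counts. Values below are in CPM, counts scaled to a common library size with TMM factors, and fold changes are log2 values ± their standard error (SE) with n = 3 libraries per group, positive where the infarct zone was higher. A gene was called where the Benjamini-Hochberg adjusted p of edgeR's quasi-likelihood test over all 14537 genes was under 0.05, and "rose" or "fell" is written only of called genes. Reads of the mitochondrial genome made up 10.5% ± 0.654 (SD) of counts in the infarct zone and 23.4% ± 0.603 in sham. RNA integrity numbers were 7.1 to 7.6 in the infarct zone and 7.8 to 8.4 in sham, without overlap, so that RNA quality moved with the group. With RNA integrity as a covariate over the 36 libraries, 6046 genes were called. EIF1AY, a Y-linked gene, was at 9.78, 15 and 0 CPM in the infarct zone and 0, 32.1 and 0 CPM in sham. Both groups thus held pigs with and without it. With a term for Y-linked expression 7462 genes were called. The TMM factors were 1.41 to 1.66 in the infarct zone and 1.03 to 1.04 in sham. With library totals in place of TMM factors the median log2 fold change of all genes moved from -0.04 to 0.53 and 5937 genes were called higher and 1060 lower, so every change here is relative to the bulk of genes. The exact permutation test over 3 and 3 libraries cannot go below p = 0.1, and p-values come from the fit over 36 libraries, whose spread is that between pigs of a group. Those libraries came from 24 pigs, and the fit treated the IZ and BZ libraries of a pig as independent. Estimated with limma, the correlation between libraries of 1 pig was 0.378. The p-values of the infarct zone against the border zone come instead from a fit over 24 libraries with the animal as a block.

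The labelled tissue was checked against markers. MYL2, the ventricular regulatory light chain, was at 6810, 5722 and 4457 CPM in the 3 IZ libraries and at 11740, 13110 and 12850 CPM in the 3 sham libraries, so ventricular muscle RNA was abundant in all 6. Its log2 fold change was -1.15 ± 0.45 (edgeR adjusted p = 0.0362), a call lost with library totals and in each of the 6 fits that left out 1 library, in which the value ran from -1.22 to -0.94. HEY2, a transcription factor of ventricular myocardium, was at 5.38, 12.9 and 12.1 CPM in the infarct zone and at 99.9, 128 and 126 CPM in sham, and fell by 3.54 ± 0.38 on the log2 scale (edgeR adjusted p = 2.75e-08). IRX4, a ventricle-specific repressor, was at 4.57, 4.55 and 4.19 CPM against 33.0, 29.5 and 37.2 CPM (log2 fold change -2.91). The groups did not overlap for any of the 5 ventricle markers measured, nor for 61.6% of all genes tested. Of 10 atrial markers, 5 were higher (GJA5, MYL4, NR2F1, NR2F2 and SLN) and 2 lower (KCNJ3 and TBX5). MYL4, the atrial and fetal light chain, was at 1843, 444 and 581 CPM in the infarct zone and 24.7, 120.0 and 54.2 CPM in sham, and its log2 fold change was 3.85 ± 0.78 (edgeR adjusted p = 1.62e-04). SLN, an atrial inhibitor of the sarcoplasmic calcium pump, had 191 counts over the IZ libraries and 3 over sham, a ratio of 43.0 (95% counting interval 14.5 to 211). The atrial markers PAM and STARD10 did not pass the test (log2 fold changes 0.31 and -0.06). What part another chamber or a change inside ventricular muscle had in these values was not tested.

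Across all genes, 3646 were higher in the infarct zone (25.1% of those tested) and 3491 were lower (24%). The rises were larger than the falls: 855 called genes were up by at least 3 on the log2 scale and 86 were down by at least 3. The 3 IZ and 3 sham libraries did not overlap for 8951 genes (61.6%), and 4762 of the 7137 calls (66.7%) held in all 6 fits that each left out 1 library. On principal components of the 6 libraries, the first component carried 81% of the variance and placed the IZ libraries at -95.7, -67.2 and -88.3 and the sham libraries at 82.1, 81.3 and 87.9. Among genes with a mean of at least 1 log2 CPM over the 36 libraries, the 25 largest rises without overlap were, in order, SFRP2, MMP9, SPP1, CTHRC1, SLC2A5, ACP5, COL9A3, TNC, LYZ, CXCL14, S100A4, SLC11A1, LGALS3, GPNMB, ADAM12, CHAD, FMOD, TREM2, ACTG2, C1QTNF3, CTSL, VDR, APOE, ANGPT4 and CILP. They ranged from 5.98 for CILP to 11.48 for SFRP2. Among those not described with a list below, SLC2A5 is the fructose transporter, VDR the vitamin D receptor, SLC11A1 a metal transporter of phagosomes, CTSL a lysosomal protease and ANGPT4 an angiopoietin. The 25 largest falls included MYOM2, PLIN5, DDIT4L, FRMD5, AGT, KLHL38, DHRS7C, SLC38A3, DGAT2, ASB11, ATP4B, XDH, LIPM, CCK, CFTR, ADHFE1, HEY2, KLF15, IRS2, ADCYAP1R1, BTNL9, PLIN4, SLC2A4 and NMRK2, from -4.85 for MYOM2 to -3.34 for NMRK2. AGT encodes angiotensinogen, the precursor of angiotensin, IRS2 an adaptor of the insulin receptor, NMRK2 a muscle kinase of NAD synthesis and XDH xanthine dehydrogenase. Both sets of names were chosen by size of change and carry no test of their own.

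**Figure D1:**
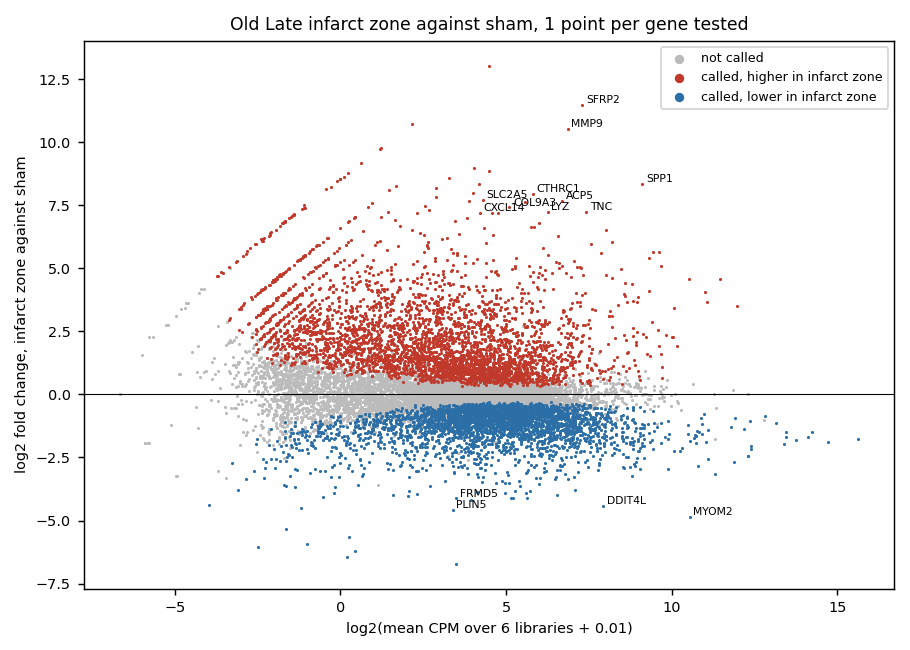
Log2 fold change of the Old Late infarct zone against sham (y axis) by mean expression over the 6 libraries in log2 CPM (x axis), 1 point per gene tested, with called genes in colour and the 10 largest rises and 4 largest falls of the naming rule labelled. Labelled rises reach 11.48 for SFRP2 and labelled falls -4.85 for MYOM2, and the points beyond these have a mean under 1 log2 CPM over the 36 libraries, below the minimum of that rule.

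Fibroblast genes were higher almost throughout. Of 21 tested, 20 rose and none fell, with a median log2 fold change of 2.78 against -0.04 for all genes tested. SFRP2, a secreted WNT-binding protein of activated fibroblasts, was at 368, 275 and 301 CPM in the infarct zone and at 0.162, 0.0983 and 0.0469 CPM in sham. All 3 IZ libraries were far above all 3 sham libraries, for a log2 fold change of 11.48 ± 0.87 (edgeR adjusted p = 7.15e-11). S100A4, a calcium-binding protein of motile fibroblasts and leukocytes, was at 61.7, 19.5 and 80.4 CPM against 0.364, 0.442 and 0.282 CPM (log2 fold change 7.20 ± 0.96). PI16, a marker of adventitial fibroblasts, was at 266, 306 and 251 CPM against 5.30, 15.1 and 4.46 CPM. MEOX1, a transcription factor of activated fibroblasts, was at 54.1, 23.1 and 21.4 CPM against 2.59, 1.48 and 1.502 CPM. Both rose, with log2 fold changes of 5.05 ± 0.64 and 4.13 ± 0.42. The lineage factor TCF21 and the receptor DDR2 each rose by 2.14 on the log2 scale, less than most of the list. LRRC15, a surface protein of myofibroblasts, had no count in the sham libraries and 44 counts in the infarct zone, which is at least 9.91-fold higher. MFAP5 was the only fibroblast gene that did not pass the test (log2 fold change 0.80).

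Collagens divided by kind. Of 11 fibrillar collagen genes, 10 rose and none fell (median 3.68), and of 16 other collagens 10 rose and none fell (median 2.27). Fibrillar collagens took 2.79% ± 0.474 (SD) of all counts in the infarct zone and 0.13% ± 0.02 in sham. COL3A1, which forms fine reticular fibres with type I collagen, was at 5435, 9215 and 7486 CPM in the infarct zone and 771, 622 and 573 CPM in sham. The lowest IZ library was several times the highest sham library, and the log2 fold change was 3.49 ± 0.40 (edgeR adjusted p = 7.39e-08). COL8A2 and COL8A1 encode a short-chain collagen of vessel walls and the corneal basement membrane. COL8A2 was at 44.6, 32.5 and 18.8 CPM against 0.162, 0.147 and 0.0469 CPM (log2 fold change 7.99 ± 0.61), and COL8A1 at 266, 314 and 199.8 CPM against 5.55, 7.32 and 7.23 CPM (5.28 ± 0.46). COL12A1, a fibril-associated collagen, rose by 5.03 and COL6A3, a microfibrillar one, by 3.10. COL11A2, which encodes a chain of type XI collagen, did not pass (-0.18), whereas COL11A1, of the same collagen, rose by 7.62. COL2A1, the collagen of cartilage, had no count in sham and 85 counts in the infarct zone, which is at least 19.2-fold higher. Basement membrane genes did not follow: of 17 tested, 4 rose and 5 fell (median -0.37, which turned to 0.22 with library totals in place of TMM factors). These shares, 23.5% and 29.4%, were near the 25.1% and 24% of all genes tested. The falls numbered 3 without any 1 of the IZ libraries and 1 with library totals. LAMA1, a laminin chain of early basement membranes, rose by 2.65 and LAMC3 by 2.04, while LAMB2, the laminin chain around mature muscle and vessels, fell by 1.19 on the log2 scale.

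**Figure D2:**
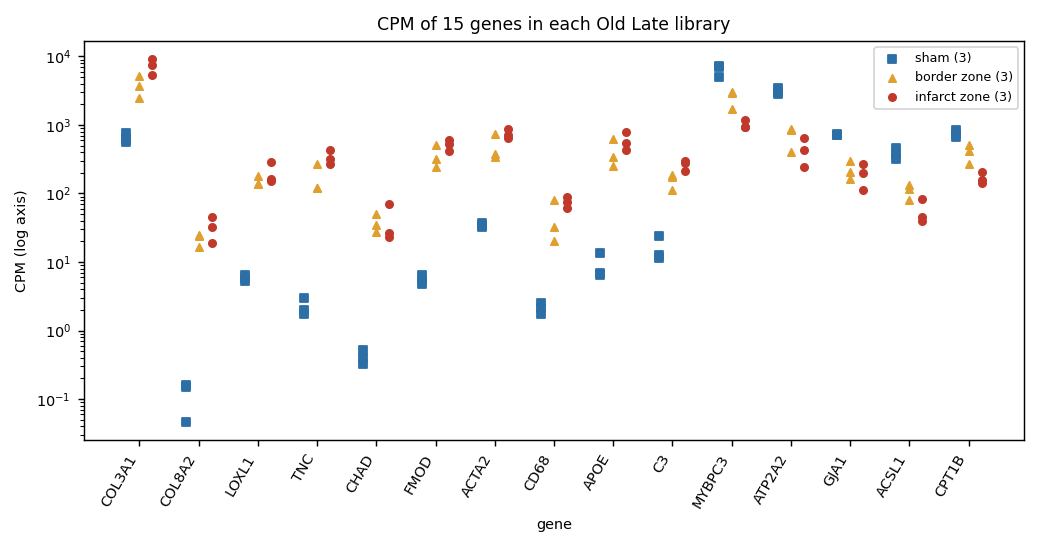
CPM per library on a log axis (y axis) for 15 genes (x axis), with circles for the 3 Old Late IZ libraries, triangles for the 3 BZ libraries and squares for the 3 sham libraries. For each gene drawn, the 3 IZ libraries lie on 1 side of the 3 sham libraries, and the BZ libraries lie between them or overlap the IZ libraries.

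The enzymes that modify and cross-link collagen rose with it. Of 30 tested, 27 rose and none fell (median 2.12), and ADAMTS3, ADAMTS14 and MIA3 did not pass (-0.24, -0.28 and -0.40). P4HA3, a prolyl hydroxylase subunit, was at 37.6, 27.8 and 27.2 CPM in the infarct zone and 0.648, 0.786 and 1.08 CPM in sham (log2 fold change 5.20 ± 0.44, edgeR adjusted p = 1.19e-09). LOXL1, a lysyl oxidase that cross-links elastin and collagen, was at 288, 153 and 163 CPM against 5.30, 6.54 and 5.82 CPM, a log2 fold change of 5.10 ± 0.35. LOX itself was at 57.7, 109.9 and 77.2 CPM against 5.55, 5.26 and 4.41 CPM (4.00 ± 0.47). In all 3 genes every IZ library exceeded every sham library by a wide margin. The lysyl hydroxylase PLOD2 rose by 2.58, more than PLOD1 (1.28) and PLOD3 (1.05), and the collagen chaperone SERPINH1 rose by 2.14.

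Matricellular genes, whose products sit in the matrix and signal to cells, were mostly higher. Of 44 tested, 37 rose and 2 fell (median 3.21), and the list took 2.33% ± 0.103 (SD) of counts in the infarct zone and 0.179% ± 0.00803 in sham. SPP1, osteopontin, a glycoprotein of macrophages and mineralising tissue, was at 908, 459 and 1938 CPM against 4.13, 4.62 and 1.46 CPM (log2 fold change 8.34 ± 1.09). TNC, tenascin C, which appears in healing wounds, was at 434, 269 and 317 CPM against 2.96, 1.77 and 1.97 CPM (7.24 ± 0.77, edgeR adjusted p = 2.24e-08). TNN, tenascin N, a tenascin of bone and periodontal tissue, was at 52.2, 46.6 and 35.9 CPM against 0.0810, 0 and 0.188 CPM (8.87 ± 0.74). Its sham values rest on 6 counts in all. ELN, elastin, was at 361, 672 and 495 CPM against 53.1, 55.9 and 43.1 CPM (3.33 ± 0.56). CCN2, a connective tissue growth factor, was at 117, 222 and 159.5 CPM against 18.6, 41.2 and 19.9 CPM (2.65 ± 0.45). The 2 falls were VTN, vitronectin (-1.35), and FBLN5, a fibulin that binds elastin (-0.49, or 0.07 with library totals), whose call held in only 1 of the 6 fits that left out a library (values -0.54 to -0.27).

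Genes best known from cartilage, bone and tendon rose strongly. Of 24 tested, 15 rose and 3 fell, with a median log2 fold change of 4.90 (4.38 with genes absent from sham set at their bound). CHAD, chondroadherin, a leucine-rich protein of cartilage, was at 71.3, 23.1 and 26.5 CPM in the infarct zone and 0.324, 0.393 and 0.516 CPM in sham (6.61 ± 0.63, edgeR adjusted p = 4.83e-09). FMOD, fibromodulin, which shapes collagen fibrils in tendon, was at 598, 523 and 423 CPM against 5.38, 6.44 and 4.79 CPM (6.54 ± 0.55). CILP, a cartilage intermediate layer protein also made by cardiac fibroblasts, was at 612, 295 and 200.2 CPM against 8.10, 5.31 and 4.04 CPM (5.98 ± 0.53). COMP, cartilage oligomeric matrix protein, was at 18.3, 11.8 and 14.1 CPM against 0.0810, 0.0491 and 0.0469 CPM (7.81 ± 0.85). For each of these matrix proteins the groups were far apart and did not overlap. The tendon genes followed. SCX, the tendon transcription factor scleraxis, was at 18.2, 5.86 and 5.14 CPM against 0.203, 0.0491 and 0.469 CPM (5.30 ± 0.59), and TNMD, tenomodulin, had no sham count and 191 IZ counts, at least 43-fold higher. RUNX2, the master factor of bone formation, had 326 counts in the infarct zone and 2 in sham, a ratio of 110.0 (95% counting interval 30.3 to 914), and SOX9, the cartilage factor, rose by 2.93 ± 0.37. ALPL, tissue-nonspecific alkaline phosphatase, was at 0.281, 0.234 and 0.427 CPM against 1.30, 2.41 and 1.22 CPM and fell by 2.32, and DMP1, an osteocyte gene, was not called (-0.18). Several members of the list, among them SPP1, COL11A1, CILP and FMOD, also belong to the matrix lists above.

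Proteoglycans and hyaluronan genes showed 20 rises and 1 fall among 27 tested (median 2.16). BGN, biglycan, a small proteoglycan that binds collagen, was at 2032, 1261 and 1528 CPM against 49.6, 46.2 and 45.4 CPM (5.09 ± 0.47). KERA, keratocan, known from the cornea, had 120 IZ counts and 2 sham counts, a ratio of 40.6 (95% counting interval 11 to 339). HAPLN3, a hyaluronan link protein of the vessel wall, moved the other way, at 9.53, 10.6 and 8.73 CPM against 43.9, 58.8 and 99.0 CPM (-2.80 ± 0.28). Matrix proteases and their inhibitors showed 21 rises and 3 falls among 32 (median 2.23, or 2.06 with bounds). MMP9, the gelatinase of neutrophils and macrophages, was at 143, 190.0 and 365 CPM against 0.203, 0.246 and 0 CPM (10.54 ± 1.37, edgeR adjusted p = 1.35e-07), the second largest rise by the naming rule. ADAM12, a membrane protease of mesenchymal cells, was at 97.1, 106 and 115 CPM against 0.648, 1.18 and 1.41 CPM (6.62 ± 0.64). MMP2, the gelatinase of fibroblasts, was at 1145, 792 and 808 CPM against 71.5, 80.0 and 66.2 CPM (3.66 ± 0.33). Among tissue inhibitors of metalloproteinases, TIMP1 rose by 4.19 whereas TIMP3 and TIMP4 were not called (-0.21 and -0.32). MMP11, stromelysin 3, fell by 2.68 on the log2 scale.

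Most contractile smooth muscle genes of the myofibroblast rose. Of 18 tested, 11 rose and 4 fell (median 1.53, with 1 fall with library totals), and TPM2, MYL9 and DES were not called (-0.60, 0.33 and 0.02). ACTA2, smooth muscle alpha actin and the usual myofibroblast marker, was at 866, 650.5 and 716 CPM in the infarct zone and 37.3, 33.3 and 32.6 CPM in sham (4.43 ± 0.41, edgeR adjusted p = 3.64e-09). ACTG2, the actin of enteric smooth muscle, was at 33.9, 47.2 and 61.7 CPM against 0.891, 0.541 and 0.282 CPM (6.34 ± 0.95). CNN1, calponin, was at 597, 224 and 247 CPM against 31.9, 40.3 and 28.7 CPM (3.40 ± 0.36). The factor that drives these promoters, SRF, fell by 1.38 on the log2 scale. Of its coactivators on the list, MRTFA rose by 1.27 and MYOCD fell. Integrins and actin cytoskeleton genes showed 36 rises and 4 falls among 55 (median 1.66). ITGA11, the collagen-binding integrin of fibroblasts, was at 116, 89.5 and 82.8 CPM against 7.05, 5.65 and 4.88 CPM (4.03 ± 0.42). LGALS3, galectin 3, shared with the macrophage list, was at 113, 80.1 and 189 CPM against 0.526, 1.28 and 1.64 CPM (6.81 ± 0.83), and ITGB6, an epithelial integrin, fell by 3.19.

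Growth factor pathways moved at several levels. In the TGF-beta, activin and BMP list, 27 of 44 rose and 6 fell (median 1.36, with 2 falls with library totals). Among ligands, TGFB3 was at 131, 132 and 122 CPM against 9.56, 17.6 and 7.61 CPM (3.47 ± 0.33), above TGFB2 (1.63) and TGFB1 (1.51) in size of rise, and the latent binding protein LTBP2 rose by 4.80. Myostatin, MSTN, an inhibitor of muscle growth, was at 0.211, 0.234 and 0.201 CPM against 1.82, 0.934 and 1.78 CPM and fell by 2.80. Of the BMP antagonists, CHRDL2 had 240 IZ counts and 2 sham counts, a ratio of 81.1 (95% counting interval 22.2 to 674), and NOG, noggin, had no sham count and 33 IZ counts, at least 7.44-fold higher. In the WNT list, 17 of 34 rose and 5 fell (median 1.26), with 2 falls without IZ replicate 1, 3 without IZ replicate 2 or 3 and 1 with library totals. Among secreted antagonists, SFRP1 was at 540.5, 455 and 386 CPM against 10.2, 13.4 and 4.55 CPM (5.62 ± 0.41) and FRZB at 68.5, 237 and 114 CPM against 3.89, 12.1 and 1.83 CPM (4.56 ± 0.86), while DKK1 fell by 1.64 and DKK3 and NOTUM were not called (0.89 and 0.11). AXIN2, a common readout of the canonical branch, was not called (-0.32). Of 38 PDGF, FGF, IGF and EGF genes, 23 rose and 6 fell (median 1.16). IGF1 was at 32.5, 22.9 and 17.1 CPM against 0.972, 0.786 and 1.08 CPM (4.66 ± 0.50) while its receptor gene IGF1R fell by 1.40. PTN, pleiotrophin, was at 187, 129.6 and 137 CPM against 2.92, 3.15 and 3.76 CPM (5.53 ± 0.50). NRG1, neuregulin, had 213 IZ counts and 2 sham counts, a ratio of 72.0 (95% counting interval 19.7 to 598), while the receptor gene ERBB2 fell by 0.92, a call lost with library totals.

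**Figure D3:**
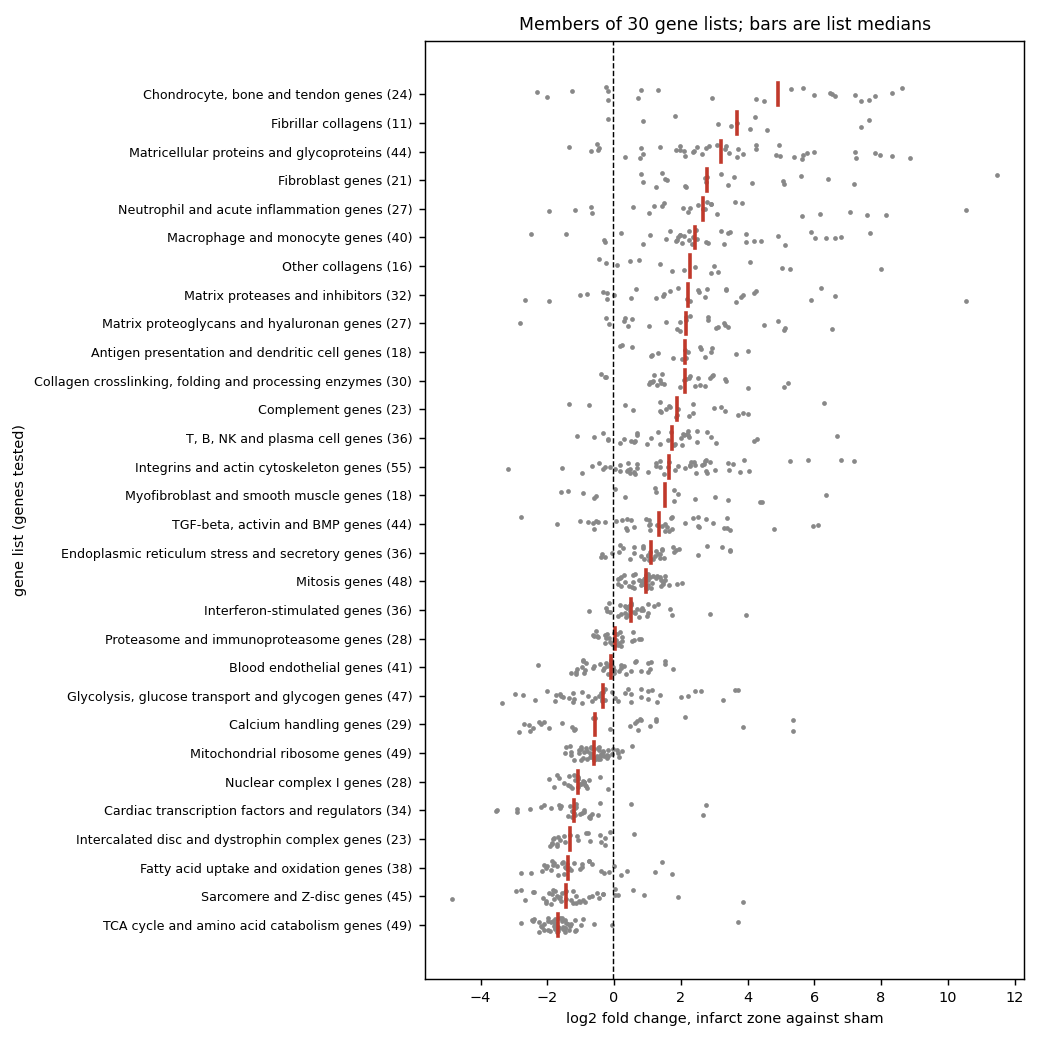
Log2 fold change of every tested member (x axis, grey points) of 30 gene lists (y axis, number tested in brackets), with the list median as a vertical bar and the median of all genes tested, -0.04, as a dashed line. The medians of the fibrillar collagen, matricellular, fibroblast and macrophage lists lie to the right of 0 and those of the sarcomere, TCA cycle and complex I lists to the left.

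Macrophage genes were 33 higher and 2 lower of 40 tested (median 2.41), and took 0.933% ± 0.207 (SD) of counts in the infarct zone against 0.198% ± 0.00283 in sham. CD68, a lysosomal glycoprotein of macrophages, was at 76.0, 61.8 and 87.6 CPM against 2.55, 1.77 and 2.16 CPM (5.11 ± 0.52, edgeR adjusted p = 1.37e-08). ACP5, a lysosomal acid phosphatase of osteoclasts and activated macrophages, was at 213, 103 and 303 CPM against 1.13, 0.786 and 1.08 CPM (7.67 ± 0.94). TREM2, a lipid-sensing receptor, was at 26.4, 22.6 and 22.3 CPM against 0.405, 0.0983 and 0.329 CPM (6.36 ± 0.69). GPNMB, a glycoprotein of lipid-laden macrophages, was at 43.8, 133 and 162 CPM against 0.931, 1.57 and 0.939 CPM (6.63 ± 0.75), and APOE at 784, 425 and 543 CPM against 13.4, 6.98 and 6.38 CPM (6.03 ± 0.76). In each of these 5 genes every IZ library lay far above every sham library. LYVE1 and MRC1, endocytic receptors of tissue macrophages, were not called (-0.30 and 0.86, the latter called higher with library totals), whereas CD163, a haemoglobin scavenger receptor, and VSIG4, a complement receptor, rose by 2.32 and 3.47. The 2 falls of the list were LPL (-2.49) and PLA2G7 (-1.43), and LPL, a lipase, is also made by muscle.

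Inflammation genes were still raised 1 week after the injury. Of 27 neutrophil and acute inflammation genes, 21 rose and 1 fell (median 2.67). S100A8, a calprotectin subunit of neutrophils, had 159 IZ counts and none in sham, at least 35.8-fold higher. IL6 had 38 IZ counts and none in sham, at least 8.56-fold higher. CSF3R, the granulocyte colony-stimulating factor receptor, was at 11.8, 9.74 and 12.6 CPM against 0.364, 0.0983 and 0.188 CPM (5.63 ± 0.78). IL18 rose by 3.84, and CXCL8, the main neutrophil attractant, was not called (1.04). Of 27 chemokine genes 16 rose and none fell (median 1.63). CXCL14 was at 22.2, 32.3 and 55.2 CPM against 0.162, 0.197 and 0.376 CPM (7.21 ± 1.16) and CCR1, a receptor of monocytes and neutrophils, at 9.74, 23.1 and 32.5 CPM against 0.203, 0.246 and 0.0939 CPM (6.87 ± 0.80). Of 23 complement genes, 17 rose and 1 fell (median 1.90). C3 was at 297, 274 and 213 CPM against 24.1, 11.5 and 12.5 CPM (4.02 ± 0.55), and C1QTNF3, a secreted relative of C1q made by mesenchymal cells, was at 204, 209.6 and 147 CPM against 2.43, 2.36 and 2.44 CPM (6.28 ± 0.56).

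Lymphocyte genes were at low levels in every library. Of 36 tested, 22 rose and none fell (median 1.75). CD3E, a chain of the T cell receptor complex, was at 1.48, 2.01 and 1.96 CPM against 0.405, 0.737 and 0.188 CPM (2.04 ± 0.46, edgeR adjusted p = 6.06e-04), and NKG7, a granule protein of cytotoxic cells, was at 35.9, 24.4 and 36.2 CPM against 1.70, 2.21 and 1.03 CPM (4.28 ± 0.52). CD28, a T cell costimulator, had 53 IZ counts and none in sham, at least 11.9-fold higher. CD4 and CD8A were not called (0.16 and 0.59). Antigen presentation genes showed 15 rises and no fall among 18 (median 2.14). XCR1, a receptor of cross-presenting dendritic cells, had 58 IZ counts and 2 in sham, a ratio of 19.6 (95% counting interval 5.19 to 166). CD86, a costimulatory ligand, was at 9.53, 12.9 and 17.4 CPM against 1.34, 1.18 and 0.657 CPM (3.64 ± 0.56), while CD209, TAP1 and TAP2 were not called (0.53, 0.18 and 0.24). Interferon-stimulated genes stood apart from the other immune lists, with 7 of 36 higher (19.4% of the list, against 25.1% of all genes) and none lower (median 0.50). ISG15 was at 55.8, 22.02 and 42.2 CPM against 35.7, 15.9 and 9.15 CPM and was not called (0.98 ± 0.67, edgeR adjusted p = 0.227) unless library totals were used. Sham replicate 1 was above IZ replicate 2, so the groups overlapped. Over the whole list, the mean level of sham replicate 1 was 3.99 log2 CPM, inside the 3.90 to 4.36 of the infarct zone, and the other sham libraries were at 3.40 and 2.94. The largest called rises were ISG20, an exonuclease (3.97), and MX1 (1.73), and the MX1 call held in only 2 of 6 fits. The number of calls was 14 with library totals, 2 without sham replicate 3, 3 without sham replicate 2 or IZ replicate 1, and 8 without IZ replicate 2.

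Muscle genes were lower. Of 45 sarcomere and Z-disc genes, 31 fell and 2 rose (median -1.45), and the list made up 8.23% ± 1.12 (SD) of counts in the infarct zone and 14% ± 0.823 in sham. MYOM2, the M-band protein of adult fast and cardiac muscle, was at 27.8, 209 and 62.1 CPM in the infarct zone and 2614, 2556 and 3481 CPM in sham (-4.85 ± 0.70). IZ replicate 2 held several times more MYOM2 than the other IZ libraries, yet far less than any sham library. MYBPC3, myosin-binding protein C, was at 930.5, 1166 and 939.8 CPM against 7110, 5062 and 7230 CPM (-2.68 ± 0.34, edgeR adjusted p = 2.77e-07). JPH1, a junctophilin that ties the surface membrane to the sarcoplasmic reticulum, was at 10.4, 18.8 and 12.1 CPM against 97.2, 94.3 and 92.6 CPM (-2.78 ± 0.43). ACTC1, cardiac alpha actin, and CSRP3, a Z-disc sensor, were not called (-1.01 and -0.45). Of the 2 rises, MYL4 is described above and the call of XIRP2, an actin-binding protein of the intercalated disc (1.92), held in 2 of the 6 fits without a library.

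Calcium handling genes showed 13 falls and 9 rises among 29 (median -0.57, -0.01 with library totals). ATP2A2, the calcium pump SERCA2, was at 239, 636 and 429.5 CPM against 3460, 2810 and 3040 CPM (-2.83 ± 0.50, edgeR adjusted p = 3.22e-05). RYR2, the calcium release channel, was at 72.9, 288 and 156 CPM against 1018, 1036 and 881 CPM (-2.50 ± 0.61). In both genes IZ replicate 1 was lowest and replicate 2 highest of the 3, and all were below sham. CACNA1G, a T-type calcium channel of the fetal heart and of pacemaker cells, moved up, at 11.3, 7.03 and 8.13 CPM against 0.567, 0.590 and 0.657 CPM (3.86 ± 0.38). SORCS2, a sorting receptor placed on this list, rose by 5.35. Among 29 ion channel and gap junction genes, 15 fell and 6 rose (median -0.89, or 9 falls and a median of -0.31 with library totals), with 3 rises without sham replicate 3. KCNJ2, the inward rectifier that sets the resting potential, was at 21.6, 37.3 and 25.3 CPM against 194, 174 and 196 CPM (-2.75 ± 0.38). GJA1, connexin 43, the main gap junction protein of the ventricle, was at 111, 269 and 201 CPM against 727, 704 and 718 CPM (-1.89 ± 0.34). KCNK1, a leak channel, had 102 IZ counts and 1 in sham, a ratio of 68.9 (95% counting interval 12.1 to 2750). Of 23 intercalated disc and dystrophin complex genes, 17 fell and 1 rose (median -1.32, or 9 falls and a median of -0.75 with library totals). DSP, desmoplakin, was at 138, 191 and 167 CPM against 680.4, 659 and 548 CPM (-1.93 ± 0.25), and CDH2, N-cadherin, fell by 1.87.

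Regulators of the cardiomyocyte state were mostly lower. Of 34 cardiac transcription factors, 25 fell and 2 rose (median -1.19, or 11 falls and a median of -0.62 with library totals). KLF15, a repressor of hypertrophic growth that also drives amino acid and lipid catabolism, was at 3.66, 6.59 and 4.87 CPM against 49.8, 60.6 and 61.8 CPM (-3.51 ± 0.57, edgeR adjusted p = 1.16e-05). TBX5, a cardiac T-box factor, was at 18.4, 18.2 and 11.8 CPM against 46.8, 42.6 and 35.4 CPM (-1.37 ± 0.33), a call lost with library totals. The 2 rises were MEIS1, a homeobox factor that limits cardiomyocyte proliferation in mice (2.77 ± 0.56), and TBX18, a factor of the epicardium and mural cells (2.66 ± 0.38). Of 35 adrenergic, muscarinic and phosphodiesterase genes, 16 fell and 11 rose (median -0.41, 0.17 with library totals). ADRB1, the main cardiac beta receptor, was at 4.79, 9.34 and 8.03 CPM against 32.2, 22.02 and 25.2 CPM (-1.84 ± 0.49), also lost with library totals. The adenylyl cyclase ADCY6 fell by 2.88 and PDE3A, a cyclic AMP phosphodiesterase, also fell (-2.66), while ADRA2A rose by 3.21 from 4 sham counts. Among 17 cardiac stress genes 8 rose and 4 fell, with 1 fall without IZ replicate 1 or 3, 2 without sham replicate 3 and none with library totals. UCHL1, a deubiquitinase, was at 29.5, 13.1 and 17.3 CPM against 1.17, 1.43 and 0.282 CPM (4.37 ± 0.57), GDF15, a stress cytokine, rose by 3.38 from 5 sham counts, and ANKRD1 was not called (0.02). Genes of embryonic and skeletal muscle rose from low levels, 7 of 13 tested against 1 fall. MYL1, a fast skeletal light chain, was at 16.1, 27.7 and 5.85 CPM against 0.972, 0.983 and 0.423 CPM (4.37 ± 0.68), MYBPH at 5.31, 1.74 and 3.49 CPM against 0.162, 0 and 0.188 CPM (4.81 ± 0.99), and MYH3, embryonic myosin, at 79.6, 15.6 and 17.9 CPM against 3.77, 3.83 and 8.69 CPM (2.80 ± 0.56).

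Fatty acid oxidation genes were 26 lower and 3 higher of 38 (median -1.38). ACSL1, which activates fatty acids, was at 39.3, 84.3 and 45.2 CPM against 466, 323 and 377 CPM (-2.79 ± 0.36, edgeR adjusted p = 3.51e-07). CPT1B, the muscle gate of fatty acids into mitochondria, was at 206, 157 and 142 CPM against 730.2, 661 and 840.1 CPM (-2.14 ± 0.30). The liver-type isoform CPT1A moved the other way and rose by 1.23 ± 0.28, with 42.7, 38.1 and 48.0 CPM in the infarct zone and 24.1, 17.9 and 12.8 CPM in sham. Lipid droplet genes showed the same contrast within a family. PLIN5, the droplet coat protein of oxidative muscle, was at 1.27, 0.803 and 0.502 CPM against 27.0, 16.1 and 16.9 CPM (-4.57 ± 0.52), and PLIN2, the coat protein of most other cells, at 42.5, 41.4 and 72.0 CPM against 12.6, 13.1 and 8.59 CPM (2.188 ± 0.46). DGAT2, which makes triglycerides, was at 0.528, 0.569 and 0.703 CPM against 5.14, 6.49 and 16.5 CPM (-3.94 ± 0.50). In all, 12 of 22 lipid droplet genes fell and 2 rose (median -0.73, or 7 falls, 6 rises and a median of -0.16 with library totals). The regulators of this programme were lower too, with 20 falls and 1 rise among 28 PGC-1, ERR and PPAR genes (median -1.03, or 12 falls and a median of -0.45 with library totals). PPARA, the lipid-sensing receptor, was at 0.880, 6.53 and 1.88 CPM against 20.9, 26.4 and 18.4 CPM (-2.83 ± 0.55). ESRRG, an orphan receptor that drives mitochondrial genes after birth, fell by 2.52 and ESRRB by 2.92.

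Genes of the tricarboxylic acid (TCA) cycle and of amino acid catabolism were lower almost throughout. Of 49 tested, 46 fell and 1 rose (median -1.69), and the number of falls was 46 in each of the 6 fits without 1 library. BCKDHB, of the branched-chain keto acid dehydrogenase, was at 4.36, 8.53 and 4.87 CPM against 35.1, 31.9 and 55.8 CPM (-2.79 ± 0.40, edgeR adjusted p = 1.69e-06). BDH1 and OXCT1, which let the heart use ketone bodies, also fell (log2 fold changes -2.43 and -1.98). The rise was BCAT1, the cytosolic branched-chain aminotransferase of growing cells and macrophages, at 14.6, 19.9 and 27.9 CPM against 2.35, 1.13 and 1.27 CPM (3.70 ± 0.52), whereas the mitochondrial form BCAT2 fell by 1.75. Pyruvate carboxylase, PC, and PDP2 were not called (-0.07 and -0.61).

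Respiratory chain genes were mostly lower. Of 28 nuclear complex I genes, 21 fell and none rose (median -1.08, or 12 falls and a median of -0.53 with library totals), a count that was 11 without IZ replicate 3 and 13 without IZ replicate 2. NDUFS1, the largest subunit, was at 76.7, 147 and 84.1 CPM against 396, 434 and 365 CPM (-1.96 ± 0.30, edgeR adjusted p = 3.95e-06), and NDUFA9 fell by 1.79. Of 31 genes of complexes III and IV and ATP synthase, 20 fell and 1 rose (median -1.19). The COX6A paralogs of cytochrome oxidase moved in opposite directions. COX6A2, the heart and muscle form, was at 134, 88.2 and 67.3 CPM against 414, 347 and 431 CPM (-2.04 ± 0.54), and COX6A1, the form of other tissues, at 128, 71.3 and 82.5 CPM against 44.3, 47.4 and 46.0 CPM (1.03 ± 0.29). UQCRC1, a core subunit of complex III, fell by 2.04. All 13 protein genes of the mitochondrial genome fell (median -1.78), of which ND1 and ATP8 lost their calls in each fit without 1 library. ND5 was at 3872, 5334 and 3878 CPM against 16850, 18360 and 15810 CPM (-1.96 ± 0.45), and ND2 fell by 2.15. Mitochondrial ribosome genes fell less, 22 of 49 (median -0.59, -0.03 with library totals, where 5 fell and 6 rose), led by MRPL39 (-1.48) and MRPS27 (-1.45). The count was 13 without IZ replicate 3. Of 35 creatine kinase, nucleotide and carrier genes, 26 fell and 2 rose (median -1.18). CKM, muscle creatine kinase, was at 549, 600.3 and 388 CPM against 4922, 3727 and 4985 CPM (-3.15 ± 0.45), and HIF3A fell by 2.98.

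Genes of glycolysis, glucose transport and glycogen moved in both directions. Of 47 tested, 19 fell (40.4%) and 13 rose (27.7%), beside 24% and 25.1% of all genes (median -0.32). The falls numbered 11 without IZ replicate 3. With library totals 12 fell and 18 rose (median 0.28). The falls included GAPDH (-1.36), and the general forms PFKL, PFKP and PKM were not called (0.11, -0.35 and -0.46). SLC2A4, the insulin-regulated glucose transporter of muscle, was at 18.7, 27.7 and 15.9 CPM against 211, 176 and 255 CPM (-3.37 ± 0.33, edgeR adjusted p = 7.04e-09). PFKM, the muscle phosphofructokinase, fell by 1.76 and ENO3, the muscle enolase, also fell (-1.59). LDHA, the lactate-forming dehydrogenase subunit, was at 159, 199 and 216 CPM against 35.9, 44.2 and 42.6 CPM (2.23 ± 0.47), and ENO1, the general enolase, rose by 2.01. PHGDH, the first enzyme of serine synthesis, was at 20.5, 9.71 and 11.1 CPM against 0.850, 1.52 and 0.798 CPM (3.71 ± 0.49) and PSAT1, the aminotransferase that follows it, at 4.12, 5.79 and 4.77 CPM against 0.607, 0.393 and 0.141 CPM (3.64 ± 0.56), while PSPH, a phosphatase of the same pathway, was not called (0.81). Within heat shock and antioxidant genes, 9 of 30 rose (30%) and 6 fell (20%), near the 25.1% and 24% of all genes. There were 5 rises without sham replicate 3 and 16 with library totals. SOD2, the mitochondrial superoxide dismutase, fell by 2.29, while SOD3, the extracellular form, rose by 2.31. The largest changes were MT3, a metallothionein (-3.16), and SRXN1, sulfiredoxin (2.79). Hypoxia genes showed no common direction, with 5 of 19 higher and 6 lower (median -0.28, or 8 higher, 3 lower and 0.28 with library totals). Those shares were 26.3% and 31.6%, beside 25.1% and 24% of all genes. VEGFA, the main vessel growth factor, was at 42.7, 58.5 and 40.3 CPM against 184, 191 and 314 CPM (-2.28 ± 0.44), and EPAS1 fell by 1.54 (a call lost with library totals), while LOX rose as given above.

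Blood vessel genes mostly did not pass the test. Of 41 blood endothelial genes, 8 rose (19.5%) and 9 fell (22%), below the 25.1% and 24% of all genes, and 24 were not called (median -0.10). With library totals the median was 0.48, and 15 were called higher and 2 lower. The rises numbered 5 without sham replicate 2 and the falls 5 without IZ replicate 3. PECAM1, an adhesion protein of all endothelium, was at 114, 144 and 148 CPM against 113, 107 and 98.4 CPM and was not called (0.35 ± 0.21, edgeR adjusted p = 0.174), though it was called higher with library totals. KDR, the main receptor of VEGFA, was at 18.0, 34.5 and 31.6 CPM against 64.1, 60.1 and 59.7 CPM and fell by 1.13, a call lost with library totals. PLVAP, of fenestrated and venous vessels, rose by 1.08. ACKR1, a venular chemokine receptor, had the largest rise of the list (1.77), a call kept in 2 of 6 fits without a library and lost without IZ replicate 3 or any sham library. Mural cell genes were 7 higher and 1 lower of 15 tested. ANPEP, an aminopeptidase of pericytes and myeloid cells, was at 21.0, 9.34 and 31.9 CPM against 0.405, 0.590 and 0.282 CPM (5.60 ± 0.94), CSPG4 rose by 2.29, and the pericyte marker RGS5 was not called (-0.41). Of 11 epicardial and mesothelial genes, 8 rose and none fell, and the rises TCF21, TBX18 and C3 are also on other lists above. KRT7, a keratin of mesothelium, had 116 IZ counts and 2 in sham, a ratio of 39.2 (95% counting interval 10.6 to 328), C3 is given above, and WT1, ALDH1A1 and UPK1B were not called (-0.01, 0.33 and 0.71). Of 20 Schwann cell and neuronal genes, 9 rose. SNAP25, a synaptic protein, had no sham count and 73 IZ counts, at least 16.4-fold higher, and the glial marker SOX10 was not called (0.49). Of 6 red blood cell genes 1 fell, TFRC (16.7%, beside 24% of all genes), and HBB was not called (-1.09). Summed levels of the list were 75.8 to 104.4 CPM in the infarct zone and 256.4 to 296.4 CPM in sham.

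Cell division genes depended on the sham library. Of 48 mitosis genes, 22 were called higher and none lower (median 0.96). CDC20, an activator of the anaphase-promoting complex, was at 78.2, 22.4 and 45.1 CPM in the infarct zone and 11.6, 19.2 and 8.40 CPM in sham (1.90 ± 0.56, edgeR adjusted p = 0.0058). CDCA8, of the chromosomal passenger complex, was at 16.1, 8.23 and 12.2 CPM against 2.39, 4.38 and 2.16 CPM (2.04 ± 0.46). CDK1, the mitotic kinase, was at 29.5, 12.7 and 23.2 CPM against 7.94, 20.6 and 4.93 CPM and was not called (0.97 ± 0.46, edgeR adjusted p = 0.0818) unless library totals were used. TOP2A was at 32.4, 41.6 and 48.9 CPM against 21.4, 55.0 and 13.5 CPM (0.45, not called). For both genes sham replicate 2 was above at least 1 IZ library, while sham replicates 1 and 3 were below all of them. Over the whole list the mean level of sham replicate 2 was 3.67 log2 CPM, inside the range of the infarct zone (3.44 to 3.98), and sham replicates 1 and 3 were at 2.54 and 1.93. Without sham replicate 2, 41 mitosis genes were called higher, and without sham replicate 3 only 6 were, so the count rests on which sham pigs are included. It was also 9 without sham replicate 1, 13 without IZ replicate 1 and 14 without IZ replicate 3, and 40 with library totals. Of 47 DNA replication genes, 15 rose (31.9%, beside 25.1% of all genes) and the median was 0.49. The number was 5 without sham replicate 3, 6 without sham replicate 1, 9 without IZ replicate 1 or 3, and 30 with library totals. GINS4 rose by 1.99. TK1 rose by 1.61 with overlapping groups and lost its call without IZ replicate 1, sham replicate 1 or sham replicate 3, while MCM2 was not called (0.23). Among cell cycle inhibitors, CDKN2A had 38 IZ counts and 1 in sham, a ratio of 25.7 (95% counting interval 4.34 to 1040), and CDKN2B had 88 and 3, a ratio of 19.8 (95% counting interval 6.57 to 98.0). CDKN1B, p27, fell by 1.42, and MYC and CCND1 were not called (0.04 and -0.03). In this list of cyclins, inhibitors and growth regulators 9 of 31 rose (29%) and 5 fell (16.1%), beside 25.1% and 24% of all genes. The falls numbered 2 without IZ replicate 1 or 3 and 3 without sham replicate 1. With library totals 18 rose and 1 fell.

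**Figure D4:**
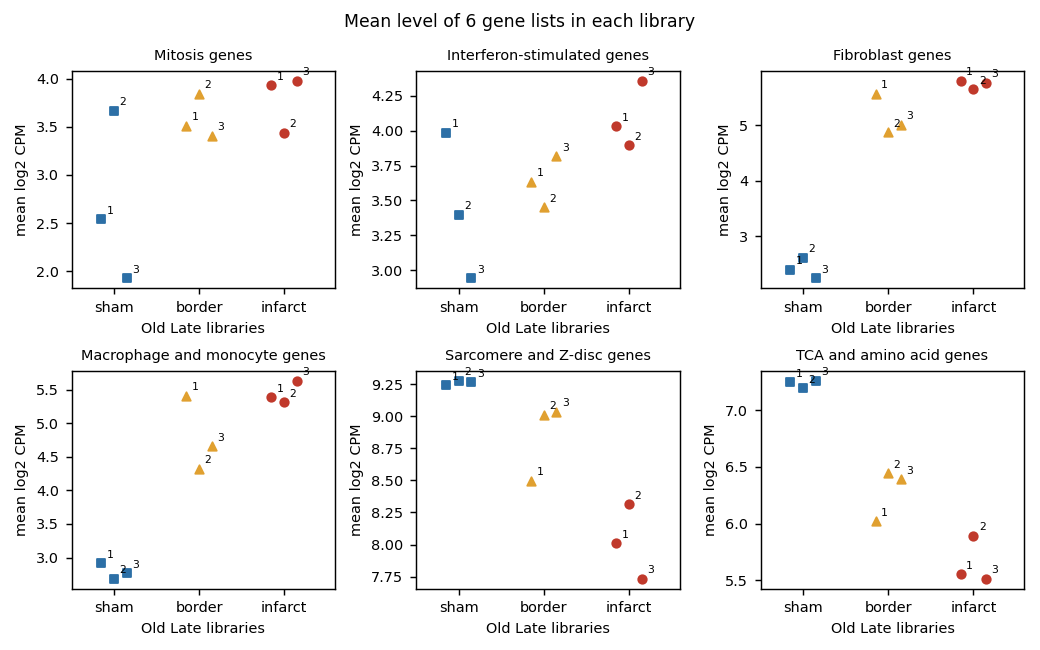
Mean log2 CPM per library (y axis) of 6 gene lists (panels) in the 3 Old Late sham, 3 BZ and 3 IZ libraries (x axis), with replicate numbers beside the points. The same replicate number does not mark the same pig in the BZ and IZ libraries. Sham replicate 2 lies with the IZ libraries for mitosis genes and sham replicate 1 does so for interferon-stimulated genes, while the fibroblast, macrophage, sarcomere and TCA panels keep sham and IZ apart.

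Genes of the secretory pathway rose moderately. Of 36 endoplasmic reticulum stress and secretory genes, 27 rose and none fell (median 1.12). CREB3L1, a membrane-bound factor that drives collagen secretion, was at 68.2, 39.6 and 49.7 CPM against 6.36, 3.74 and 3.90 CPM (3.49 ± 0.39, edgeR adjusted p = 4.92e-08). KDELR3, which returns chaperones to the endoplasmic reticulum, was at 83.3, 86.7 and 72.2 CPM against 8.99, 9.29 and 7.18 CPM (3.25 ± 0.29), and CHAC1, a target of the integrated stress response, rose by 3.47. The general chaperone HSPA5 rose by 1.03, less than these, and DNAJB9, a target of the unfolded protein response, was not called (-0.39). Of 28 proteasome genes, 2 fell and none rose (median 0.03, 0.59 with library totals, where 15 were called higher), namely PSMD11, whose call was lost in each fit without a library, and PSME4, lost without IZ replicate 1 or 3. Of 32 YAP and TEAD targets and Hippo pathway genes, 11 rose (34.4%) and 10 fell (31.2%), beside 25.1% and 24% of all genes. The median was -0.01, or 0.55 with library totals, where 16 were higher and none lower. The falls numbered 3 without IZ replicate 3, 4 without IZ replicate 1 and 6 without sham replicate 2. They included the pathway genes YAP1, TEAD1, LATS1 and LATS2, so they are not all falls of targets. The rises were led by NT5E (3.21) and CCN2.

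The Old Late response was then set against that of pigs infarcted at 2 days of age and examined at 1 week (Young Late), each against its own 3 shams. By the test of the difference between the responses, 191 genes were higher in Old Late (1.31% of 14537) and 342 lower (2.35%). The balance turned to more higher than lower genes with library totals (181 and 29), without mitochondrially encoded genes (253 and 169), with the 4 groups fitted alone (462 and 338), without Old Late IZ replicate 1 (117 and 59), 2 (426 and 326) or 3 (61 and 26), and when replicate 1 of the Young Late infarct zone was left out (308 and 191). Values of this kind are differences of 2 log2 fold changes. Age at harvest, 21 against 9 days, and library preparation batch, 3 against 1 and 2, moved with this comparison and cannot be told apart from the age at injury, and the number of calls fell to 43 without Young Late IZ replicate 3 and rose to 752 without Old Late IZ replicate 2. Y-linked expression moved with it too. Every Young Late library held EIF1AY, at 14.1, 12.3 and 16.7 CPM in the infarct zone and 18, 18.1 and 23.5 CPM in sham. In Old Late both groups were mixed, as given above. With a term for Y-linked expression 784 genes were called (276 higher, 508 lower). Of 49 TCA and amino acid genes 15 were lower and none higher, as were 12 of 35 creatine kinase and carrier genes and 7 of 45 sarcomere genes. With library totals these counts were 1, 2 and 2, and without Old Late IZ replicate 3 they were 0, 2 and 1. Over the 12 fits without 1 library they ranged from 0 to 19, 2 to 12 and 1 to 9, and Young Late IZ replicate 3 and Young Late sham replicate 2 were the other libraries without which all 3 were 3 or fewer. PLIN5 was at 5.29, 18.4 and 15.8 CPM in the Young Late infarct zone and 48.9, 48.0 and 62.0 CPM in its shams, a log2 fold change of -2.02 ± 0.44 beside -4.57 in Old Late (difference -2.55 ± 0.65, edgeR adjusted p = 0.0285). JPH1 was at 22.7, 28.8 and 41.5 CPM against 40.5, 43.2 and 47.1 CPM in Young Late (-0.49 ± 0.41), and the value of -2.78 in Old Late differed by -2.29 ± 0.58 (edgeR adjusted p = 0.0272). IRX4 was at 15.7, 26.9 and 23.3 CPM against 30.4, 28.0 and 43.7 CPM in Young Late (-0.64 ± 0.36), and the difference was -2.27 ± 0.52 (edgeR adjusted p = 0.0182). SUCLA2, a TCA cycle ligase subunit, differed by -1.66 ± 0.33 (Young Late -0.32, Old Late -1.99). ACTA2 was at 376, 293 and 286 CPM against 45.7, 75.8 and 56.6 CPM in Young Late (2.43 ± 0.38), with a difference of 2.01 ± 0.51 (edgeR adjusted p = 0.0285). EGFR, the epidermal growth factor receptor, fell in Young Late and rose in Old Late (-1.30 and 1.00, difference 2.30 ± 0.45). Of the matricellular genes, 6 of 44 were higher in Old Late and none lower, a count that was 0 when Young Late IZ replicate 3 was left out, and 1 when replicate 2 of the same zone or of its shams, Old Late IZ replicate 3 or Old Late sham replicate 1 or 2 was left out. It was 3 without Old Late IZ replicate 1 or Old Late sham replicate 3. Of the 6 differences given here, that of EGFR was called in each of the 12 fits without 1 library. That of SUCLA2 lost its call without Young Late IZ replicate 3 or Old Late IZ replicate 3, that of PLIN5 in 5 of 12 fits, IRX4 in 5 of 12, JPH1 in 7 of 12 and ACTA2 in 8 of 12, with values of -2.81 to -2.14 for PLIN5, -2.49 to -2.10 for IRX4, -2.46 to -1.98 for JPH1, 1.79 to 2.27 for ACTA2 and -1.97 to -1.40 for SUCLA2. Leaving out Young Late IZ replicate 3 or Old Late IZ replicate 3 ended each of these 5 calls, and library totals ended those of PLIN5, JPH1, IRX4 and SUCLA2. The naming rule also gives PTPRF, SYTL2, PAPSS2, FNDC1, NECAB3, COL27A1, AEBP1 and DNM1 among the 10 largest higher differences and CBR4, AGT, NMRK2 and PLIN4 among the 10 largest lower ones. Macrophage genes showed 2 lower and none higher of 40 (median difference 0.01), and the median difference of mitosis genes was -0.65.

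**Figure D5:**
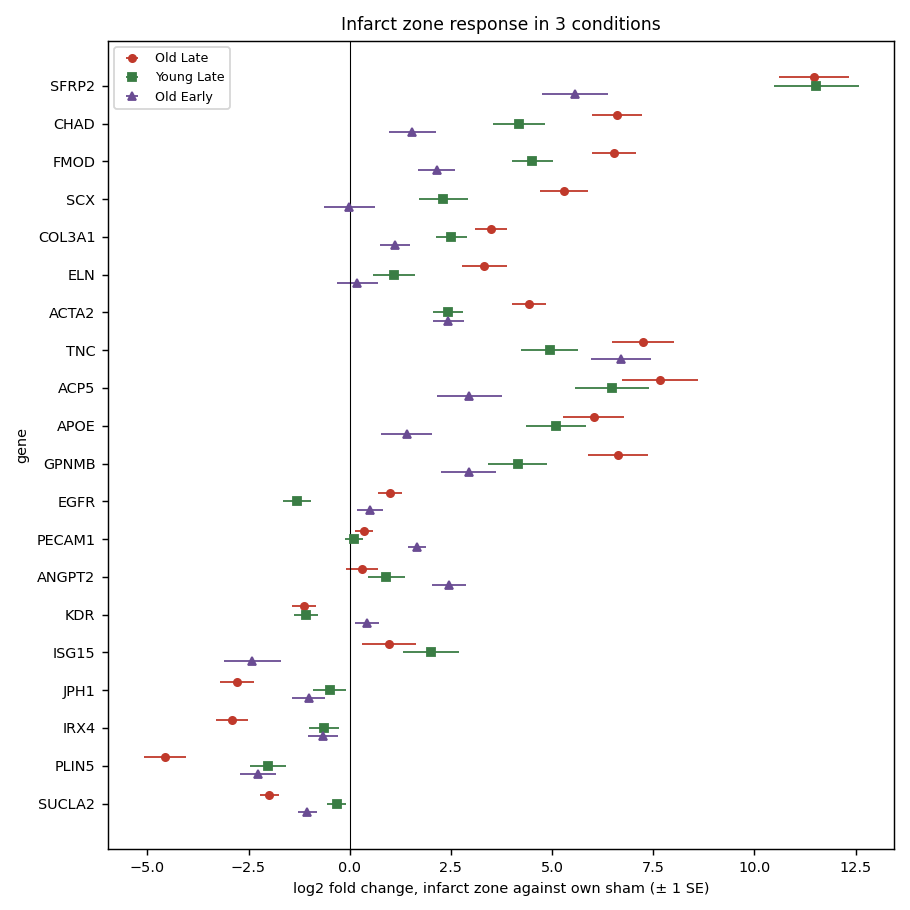
Log2 fold change of the infarct zone against its own sham (x axis, points with bars of ± 1 SE of the fit) for 20 genes (y axis) in Old Late, Young Late and Old Early, each from 3 against 3 libraries. CHAD, SCX, COL3A1 and ELN are highest in Old Late, SFRP2 is about equal in Old Late and Young Late, PECAM1 and ANGPT2 are highest in Old Early, and JPH1 and IRX4 are lowest in Old Late.

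Against pigs infarcted at the same age and examined after 1 day (Old Early), 428 genes were higher in the 1-week response (2.94%) and 231 lower (1.59%). Library preparation batch, 3 against 2, moved with this comparison and cannot be told apart from time, and the number of calls ran from 270 without Old Early sham replicate 3 to 644 without Old Late IZ replicate 2. EIF1AY was at 12.4, 23 and 17.7 CPM in the Old Early infarct zone and 0, 32.2 and 30.1 CPM in its shams. With a term for Y-linked expression 701 genes were called (448 higher, 253 lower). Of 44 matricellular genes 17 were higher at 1 week and none lower, of 11 fibrillar collagens 7 and none, of 21 fibroblast genes 12 and none (7 without Old Early sham replicate 3), and of 24 cartilage, bone and tendon genes 11 and 1. Of 16 other collagens 4 were higher, of 30 collagen-processing enzymes 7 and of 17 basement membrane genes 0, and of 32 proteases and inhibitors 6 were higher and 2 lower. SFRP2 was at 10.9, 6.42 and 3.09 CPM in the infarct zone at 1 day and 0.160, 0 and 0.229 CPM in its shams (5.56 ± 0.82), so that its rise was already called at 1 day and larger at 1 week (difference 5.91 ± 1.74, edgeR adjusted p = 0.0442). CHAD was at 1.65, 1.19 and 3.59 CPM against 0.532, 0.520 and 1.07 CPM at 1 day (1.55 ± 0.59, difference 5.06 ± 0.88). SCX was at 0.536, 0.408 and 0.734 CPM against 0.585, 0.625 and 0.497 CPM at 1 day (-0.01), a value near 0, and the difference was 5.31 ± 0.90 (edgeR adjusted p = 6.36e-04). ELN differed by 3.14 ± 0.74 (1 day 0.19, 1 week 3.33). COL3A1 was at 1244, 1259 and 1069 CPM against 499, 425 and 724 CPM at 1 day (1.12 ± 0.37, difference 2.38 ± 0.52). TNC, by contrast, had risen by 6.71 ± 0.75 at 1 day, and its difference was not called (0.53 ± 0.88, edgeR adjusted p = 0.831). Of 40 macrophage genes 8 were higher at 1 week and none lower. The number was 3 without Old Early sham replicate 3 and 5 without Old Late IZ replicate 3, Old Early IZ replicate 2 or any Old Late sham library. APOE was at 36.4, 29.0 and 60.1 CPM against 12.7, 9.89 and 24.6 CPM at 1 day (1.41 ± 0.63, difference 4.62 ± 0.92), ACP5 differed by 4.72 ± 1.15 and GPNMB by 3.69 ± 0.95. Endothelial genes went the other way, with 13 of 41 lower in the 1-week response and none higher. That count was 5 with library totals. Leaving out replicate 3 of the Old Early infarct zone gave 4, leaving out replicate 3 of its shams gave 5, and leaving out replicates 1 and 3 of the Old Late infarct zone gave 6 and 8. PECAM1 was at 298, 299 and 577 CPM against 119.6, 131 and 120.2 CPM at 1 day (1.66 ± 0.22), a rise at 1 day, where the 1-week value was not called (difference -1.31 ± 0.30, edgeR adjusted p = 0.0112). ANGPT2, a vessel-destabilising factor of endothelium, was at 13.4, 17.0 and 42.5 CPM against 4.84, 3.44 and 5.01 CPM at 1 day (2.45 ± 0.42, difference -2.15 ± 0.57). CXCL2, a neutrophil chemokine, was also lower at 1 week (-2.94 ± 0.73). Interferon-stimulated genes were higher at 1 week in 9 of 36, a count of 0 without Old Early sham replicate 3 or Old Late sham replicate 3, of 1 to 5 without Old Late sham replicate 2, Old Late IZ replicate 1 or 3 or any Old Early IZ library, and of 16 without Old Early sham replicate 2. The median log2 fold change of the list was -1.41 at 1 day and 0.50 at 1 week. ISG15 was at 13.9, 8.69 and 18.0 CPM in the infarct zone at 1 day and 46.5, 5.26 and 163 CPM in its shams (difference 3.38 ± 0.96). The value of Old Early sham replicate 3 was the highest, and the call was lost without that library. Why that sham library was high was not tested. Without 1 of the 12 libraries in turn, the differences of CHAD, SCX, COL3A1, ELN and APOE stayed called in all 12 fits. That of SFRP2 lost its call in 9 of 12 fits (values 5.14 to 6.43), ISG15 in 8 of 12 (1.91 to 4.08), ANGPT2 in 6 of 12 (-2.44 to -1.47) and GPNMB in 4 of 12 (3.39 to 4.15). The call of ACP5 was lost without Old Early sham replicate 3, that of PECAM1 without Old Early IZ replicate 3, and that of CXCL2 without Old Late sham replicate 3 or Old Early IZ replicate 1 (values 4.37 to 5.12, -1.48 to -0.92 and -3.45 to -1.94). Leaving out Old Early sham replicate 3 ended the calls of SFRP2, ISG15, ANGPT2, GPNMB and ACP5, and library totals ended those of SFRP2, PECAM1 and ANGPT2. The other genes of the naming rule were COL9A3, LYZ, PTN, CTHRC1, C1QTNF3 and FMOD on the higher side and YBX2, BTNL9, HES2, AGT, KLHL38, KIT, ADRA2C, GCAT and GPR4 on the lower side.

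Within the infarcted pigs the infarct zone was compared with the border zone of the same animals, with the animal as a block. Replicate numbers do not pair the zones: by the titles, BZ replicates 1, 2 and 3 came from the pigs of IZ replicates 3, 1 and 2. Of 14386 genes tested, 63 were higher in the infarct zone (0.438%) and 232 lower (1.61%). With library totals the balance turned, to 220 higher and 65 lower. These calls rest on 3 pigs: none was made by edgeR in any of the 6 fits that left out 1 library (1505 to 2361 genes at an unadjusted p under 0.05), nor when the animal of BZ replicate 3 was taken from its individual label, which conflicts with its title (1494 genes). Of 45 sarcomere genes 13 were lower, of 49 TCA and amino acid genes 11 and of 38 fatty acid oxidation genes 8, and none was higher, while with library totals each of these counts was 2. MYOM2 was at 351, 712 and 798 CPM in BZ replicates 1 to 3, between the infarct zone and sham, and was lower in the infarct zone than in the border zone, with a log2 difference of -3.02 ± 0.63 (edgeR adjusted p = 0.0375). PLIN5 was at 4.19, 9.92 and 2.33 CPM in the border zone (difference -2.58 ± 0.43). FBN1, fibrillin of elastic microfibrils, was higher in the infarct zone than in the border zone (1.5 ± 0.35), as was PDGFRA, the receptor of fibroblasts (1.499 ± 0.34). SFRP2 was at 399, 144 and 226 CPM in the border zone, and BZ replicate 1 exceeded every IZ library, so the zones overlapped. MMP9 was at 281, 26.4 and 52.3 CPM in BZ replicates 1 to 3. Paired by pig, MMP9 was higher in the infarct zone than in the border zone in each of the 3 pigs. SFRP2 was higher in the infarct zone in each pig but that of BZ replicate 1. Neither gene was called between the zones. Against the same shams as the infarct zone, the border zone medians were 2.68 for fibrillar collagens, 1.75 for macrophage genes, -0.68 for sarcomere genes and -0.97 for TCA and amino acid genes, each nearer to 0 than the infarct zone median, and the 2 zones share their sham libraries. The other genes that the rule names are LHFPL2, ARSB, MDFIC, ITPR1, FKBP14, GPR34, CASP10 and ALOX5 on the higher side and XDH, ATP4B, NMRK2, DDIT4L, SLC38A3, SLC2A4, PLIN4 and ASB11 on the lower side.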

How the data were processed

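Polyadenylated RNA of 36 heart samples from 24 pigs was sequenced as 76 bp read pairs from a stranded library kit, per the labels' protocols. The deposited table holds the authors' raw counts per gene and library, with 1 column per library. The tools used were STAR 2.2.1, featureCounts of Subread 1.5.1, Trimmomatic 0.36 and bcl2fastq 2.19.0.316, according to the submitters' processing notes. The genome build, the annotation release and the strand setting of the counting are not given in the sources used here, so overlapping, antisense and near-identical genes are uncertain.

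Here, genes were kept by edgeR's filterByExpr (minimum count 10, minimum total 15), scaled by TMM factors and tested with the quasi-likelihood test of edgeR 4.0.16 in R 4.3.3, in 1 fit over 36 libraries in 12 groups (24 residual degrees of freedom). The infarct and border zones were compared over 24 libraries with the animal as a block (8 residual degrees of freedom), the pairing coming from the pig number in the sample titles. The Benjamini-Hochberg adjustment covered every gene of a fit, and the threshold was 0.05. Genes absent from sham were set against a floor of 3 counts over the group. Ratios with few sham counts carry 95% intervals that cover counting error only. Responses were compared by the difference of 2 contrasts in the same fit.

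Genes were named by a rule: the 25 largest called rises and falls without overlap among genes with a mean of at least 1 log2 CPM, the 10 largest each way in the other comparisons, and members of 58 gene lists of which 1566 of 1798 entries matched a symbol in the table. A few genes that the rule names are not reported here. The members, lists and tests were chosen with earlier results of these data known. Simulated counts were drawn independently for each library, with 100 genes changed by 1 and 100 by 2 on the log2 scale. These went up and down in equal number and lay above a minimum mean level. In the real comparison 7137 genes were called, so the simulated rates need not hold there. On simulated counts, the fit of infarct zone against sham recovered 45% of genes changed by 1 and 92% of those changed by 2 on the log2 scale, over 14191 genes, with 11 false calls. For the difference from Young Late it recovered 9% and 70%, and for that from Old Early 9% and 68%. Alternatives included DESeq2 1.42.0, limma 3.58.1, other scalings and filters, covariates and leaving out each library.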

Additional observations from a re-analysis of the deposited data

Results flagged for a closer look

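Several genes responded differently in Old Late than in Young Late or in Old Early, by the test of the difference itself. Each is given only for the comparison named. Against Young Late the differences of log2 fold changes were 2.01 for ACTA2, 2.3 for EGFR, -2.27 for IRX4, -2.29 for JPH1, -2.55 for PLIN5 and -1.66 for SUCLA2. Against Old Early they were 4.72 for ACP5, -2.15 for ANGPT2, 4.62 for APOE, 5.06 for CHAD, 2.38 for COL3A1, -2.94 for CXCL2, 3.14 for ELN, 3.69 for GPNMB, 3.38 for ISG15, -1.31 for PECAM1, 5.31 for SCX and 5.91 for SFRP2. Over the 12 fits without 1 library, the calls of EGFR, APOE, CHAD, COL3A1, ELN and SCX all held. The call was lost in 9 fits for SFRP2, 8 for ISG15 and ACTA2, 7 for JPH1 and 6 for ANGPT2. It was lost in 5 for PLIN5 and IRX4, 4 for GPNMB, 2 for SUCLA2 and CXCL2 and 1 for ACP5 and PECAM1. Library preparation batch moves with both comparisons and cannot be told apart from age or time. Y-linked expression also differed between the groups, as given above.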

How the results depend on the processing

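The 7137 calls of infarct zone against sham ranged from 5845 to 6931 without 1 library and from 4837 to 7462 over the other alternatives. With library totals 84.9% of calls were higher, against 51.1% with TMM factors. The 533 differences from Young Late became 210 with library totals (181 higher, 29 lower), 285 without a count filter, 800 with the groups compared alone (462 higher, 338 lower), 1051 by DESeq2 (506 higher, 545 lower) and 422 without mitochondrially encoded genes (253 higher, 169 lower), and 43 to 752 without 1 library. The 659 differences from Old Early ranged from 270 to 644 without 1 library and became 453 with library totals (376 higher, 77 lower). The 295 calls against the border zone became 161 with a minimum log2 fold change of 1, 1015 by DESeq2, 183 with dispersions estimated first, 285 with library totals (220 higher, 65 lower), 60 without the replicate block, and 0 with the individual label or without any 1 library. The dispersion estimate and the Y-linked term were chosen after seeing the data. In limma-voom with the pig as a random replicate block, 7238, 433 and 523 genes were called for sham, Young Late and Old Early. The cause of these shifts was not tested.

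Among genes named in the text, the sign of the log2 fold change turned as follows, nearly always for genes that were not called. By DESeq2 CCND1 0.026, STARD10 0.004 and WT1 0.049. With DESeq2 size factors CCND1 0.026, STARD10 0.003 and WT1 0.051. With RNA integrity as a covariate ADAMTS14 0.18, CD209 -0.45, CD4 -0.054, CXCL8 -0.29, MYC -0.010, MYL9 -0.17, NOTUM -0.58, PFKL -0.049 and SOX10 -0.054. With a term for Y-linked expression CCND1 0.10, STARD10 0.004 and WT1 0.048. With the groups compared alone CCND1 0.018 and WT1 0.054. With library totals ADAMTS14 0.31, ADAMTS3 0.33, AXIN2 0.26, CCND1 0.52, COL11A2 0.38, CSRP3 0.094, DMP1 0.40, DNAJB9 0.19, FBLN5 0.070, HAPLN1 0.42, LYVE1 0.31, MIA3 0.19, PFKP 0.20, PKM 0.10, PSME4 0.031, RGS5 0.17, STARD10 0.50, TIMP3 0.36, TIMP4 0.27 and WT1 0.58. With limma-voom and the pig as a random replicate block ANKRD1 -0.006 and HAPLN1 0.26. Without mitochondrially encoded genes CCND1 0.034, STARD10 0.011 and WT1 0.070. Without a count filter WT1 0.006. Without 1 library, ADAMTS14 -0.45 to 0.045, ANKRD1 -0.11 to 0.30, CCND1 -0.16 to 0.22, CD4 -0.050 to 0.42, COL11A2 -0.48 to 0.070, DES -0.027 to 0.24, DMP1 -0.42 to 0.27, HAPLN1 -0.64 to 0.29, KIT -0.058 to 0.26, LYVE1 -0.76 to 0.14, MYC -0.085 to 0.17, MYL9 -0.29 to 0.65, NOTUM -0.28 to 0.80, PFKL -0.016 to 0.33, STARD10 -0.20 to 0.11, TIMP3 -0.54 to 0.052, TNC (against Old Early) -0.12 to 0.91 and WT1 -0.20 to 0.22.

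Depth limits the lowest genes, whose sham values rest on few counts, and 3 pigs per group limit all of them.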

Other observations

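Markers of further cell types moved unevenly. Of 12 endocardial genes, 9 rose (75%) and 2 fell (16.7%), the falls being NPR3 and TMEM100. They numbered 0 without IZ replicate 1 or 3, sham replicate 2 or with library totals and 1 without IZ replicate 2 or sham replicate 1. Among the rises, CDH11 is also on the fibroblast list and POSTN and SMOC1 on the matricellular list. INHBA is also on the TGF-beta list and PLVAP on the blood endothelial list, so the rises are not particular to endocardium. SMOC1, a calcium-binding matrix protein, was at 59.99, 26.5 and 39.3 CPM in the infarct zone and 4.74, 3.83 and 3.57 CPM in sham (3.37 ± 0.49), POSTN was among the rises, and HAPLN1 was not called (-0.15). NPR3, the clearance receptor for natriuretic peptides in endocardium, was at 9.85, 23.3 and 13.0 CPM against 25.8, 58.4 and 27.6 CPM (-1.28 ± 0.48), a fall whose call was lost without IZ replicate 1 or 3 or sham replicate 2. Of 9 lymphatic genes, 2 rose (22.2%) and 1 fell (11.1%), beside 25.1% and 24% of all genes. PROX1, the lymphatic master factor that cardiomyocytes also express, was at 0.774, 5.59 and 3.41 CPM against 16.9, 16.1 and 11.7 CPM (-2.187 ± 0.46), and CCL21, a chemokine of lymphatic endothelium, rose by 2.10, a call lost without IZ replicate 3.

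Of 7 adipocyte genes none rose and 2 fell (28.6%, near the 24% of all genes). THRSP, a regulator of lipid synthesis, was at 0.281, 0.937 and 0.602 CPM against 3.24, 1.82 and 2.96 CPM (-2.13 ± 0.56). LIPE was at -1.21, a call held in 2 of the 6 fits without a library. Of 5 mast cell genes 2 rose (40%) and 1 fell (20%), beside 25.1% and 24% of all genes. HDC, which makes histamine, had 44 counts in the infarct zone and 3 in sham, a ratio of 9.91 (95% counting interval 3.18 to 49.9). FCER1A, a chain of the IgE receptor, rose by 1.80 from 5 sham counts, a call held in 3 of the 6 fits, while KIT and MS4A2 were not called (0.07 and 0.78).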
